A study of Mus musculus with 6 samples.

Results

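Type I interferon signalling in granulosa cells (GCs), the somatic cells that surround and support the oocyte, was followed through 40 genes out of the 54532 listed in the RNA-seq table. The 40 members were chosen by name: interferon-stimulated genes, the transcription factors that drive them, and the sensors of foreign or misplaced nucleic acid. Each of the 40 names occurred once in the table. The GCs came from female ICR mice, 3 weeks of age, that had received PMSG (5 IU), a gonadotropin from mare serum that starts follicle growth. After 22 h the mice were given phosphate buffered saline (PBS) or 120 mg/kg of cyclophosphamide (CTX), an alkylating drug that crosslinks DNA once it is metabolised, and GCs were collected 6 h later. There were 3 PBS and 3 CTX samples, each the pooled GCs of 3 mice, and the pooling hides differences between single mice. ICR is an outbred stock.

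DNA that leaks into the cytosol is bound by cGAS (*Mb21d1*), whose product activates STING (*Tmem173*), while double-stranded RNA is bound by MDA5 (*Ifih1*) and RIG-I (*Ddx58*). These routes activate the transcription factors IRF3 and IRF7, which switch on type I interferon genes. Secreted interferon then acts through its receptor on a complex that holds STAT2 and IRF9 and binds the interferon-stimulated response element (ISRE) in the promoters of interferon-stimulated genes. Genes that respond to interferon gamma carry the gamma-activated sequence (GAS), and *Irf1* is a textbook example. Drugs that damage DNA are known to engage this system in some cell types.

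Promoters were available for 30 of the 40 members (RefSeq, build GRCm38.p6, 250 bases before the start site and 50 after it). An ISRE, searched on both strands as 2 copies of GAAA with any 2 bases between them, was found in 15 of the 30 (50%), against 3.99% of the 27025 genes with a promoter. A GAS, searched as TTCNNNGAA, which reads the same on both strands, was found in 9 of the 30 (30%), against 9.55% of all genes. A match is a string of letters, and binding there was not measured. The 250 bases upstream of 5 members that hold a match are shown as examples, 5′ to 3′ on the strand of the gene. Capitals mark ISRE and GAS matches, which overlap each other in the *Bst2* promoter.

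*Irf1* (chr11:53769764-53770013, plus strand, GAS): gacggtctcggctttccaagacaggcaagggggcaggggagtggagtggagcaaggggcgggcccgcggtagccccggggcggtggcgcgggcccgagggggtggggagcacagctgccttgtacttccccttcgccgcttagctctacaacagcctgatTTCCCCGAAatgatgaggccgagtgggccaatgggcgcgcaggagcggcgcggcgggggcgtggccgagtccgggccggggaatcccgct
*Stat2* (chr10:128270248-128270497, plus strand, ISRE on the opposite strand): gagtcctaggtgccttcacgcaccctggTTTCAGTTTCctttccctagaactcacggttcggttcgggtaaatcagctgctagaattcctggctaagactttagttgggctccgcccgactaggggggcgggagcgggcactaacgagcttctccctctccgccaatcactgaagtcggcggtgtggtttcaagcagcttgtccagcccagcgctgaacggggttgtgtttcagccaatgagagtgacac
*Isg15* (chr4:156200819-156201068, minus strand, 3 overlapping ISREs): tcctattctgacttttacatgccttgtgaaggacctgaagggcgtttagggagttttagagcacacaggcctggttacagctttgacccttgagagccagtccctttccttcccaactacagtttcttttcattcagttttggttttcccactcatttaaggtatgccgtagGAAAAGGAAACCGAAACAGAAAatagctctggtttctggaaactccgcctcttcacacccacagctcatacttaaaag
*Bst2* (chr8:71537473-71537722, minus strand, GAS and ISREs): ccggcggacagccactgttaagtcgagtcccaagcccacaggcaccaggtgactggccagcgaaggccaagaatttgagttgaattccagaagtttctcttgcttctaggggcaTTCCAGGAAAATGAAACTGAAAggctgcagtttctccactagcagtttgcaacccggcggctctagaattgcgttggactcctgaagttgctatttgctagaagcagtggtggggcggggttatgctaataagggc
*Ifit2* (chr19:34550444-34550693, plus strand, GAS): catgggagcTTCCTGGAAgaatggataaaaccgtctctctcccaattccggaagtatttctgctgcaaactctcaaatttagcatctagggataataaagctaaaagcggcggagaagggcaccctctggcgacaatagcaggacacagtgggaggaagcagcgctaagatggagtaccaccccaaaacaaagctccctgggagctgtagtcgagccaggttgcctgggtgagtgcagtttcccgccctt

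The GAS of *Irf1* began at position -90 from the start site, and the 3 ISREs of *Isg15* began at -78, -72 and -66. *Irf1* and *Ifit2* each have a second annotated start site, and neither motif was found around those.

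Levels are given as deposited, in FPKM, a unit that corrects for gene length and sequencing depth and so can be set side by side for different genes. The reads behind them could be rebuilt and came to between 16005869 and 18455011 per sample. Genes with a mean of at least 0.5 FPKM over the 6 samples were tested on the log2(FPKM + 0.1) scale with limma, using the Benjamini-Hochberg adjustment over all 14463 tested genes. A gene was called at an adjusted p-value below 0.05. A single gene compared by an exact permutation test of 3 samples against 3 cannot reach a p-value below 0.1. CTX replicate 2 stood apart from the other 5 samples: on the first principal component (46.8% of the variance) it lay at 74.7, against -26.6 to 13.2. *Cyp19a1*, the aromatase of GCs, was at 6.61 FPKM in it, against 32.5 to 62.4 FPKM in the others, while *Inha* was at 8556 to 10402 FPKM in all 6 samples. The granulosa genes *Amh* and *Esr2* went the other way. *Amh* was at 179 FPKM in it, against 48.4 to 85.5 FPKM, and *Esr2* at 136 FPKM, against 51.5 to 74.4 FPKM. Values of members that moved most with CTX replicate 2 are therefore also given without it.

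Most members were expressed at a low level in GCs, whichever treatment was given. The mean over the 6 samples was under 0.5 FPKM in 8 members, from 0.5 to 1 FPKM in 9, from 1 to 5 FPKM in 13, from 5 to 20 FPKM in 7 and above 20 FPKM in 3. The 8 below 0.5 FPKM were *Ifit1*, *Ifit3*, *Rsad2*, *Oas1a*, *Oas2*, *Mx1*, *Ifi44* and *Zbp1*, genes that are among the most strongly induced in cells exposed to type I interferon. They had between 0 and 17 reads in any sample.

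*Bst2*, which encodes tetherin, a membrane protein that holds budding virus at the cell surface, was an exception to this low level. It was at 434, 438 and 480 FPKM in the PBS samples and at 509, 526 and 489 FPKM in the CTX samples. Its mean level lay at percentile 99.6 of the tested genes. *Siglech*, which like *Bst2* marks plasmacytoid dendritic cells, was at 0 to 0.0806 FPKM in the 6 samples, and *Tcf4*, another gene of that marker list, was at 5.19 to 6.16 FPKM. *Ifi27*, a mitochondrial interferon-stimulated gene, was the next highest member and was at 44.7, 48.7 and 53.6 FPKM after PBS and 52.4, 45.2 and 46.4 FPKM after CTX. The groups overlapped in *Ifi27*, and its log2 fold change was -0.03 (standard error, SE, 0.09).

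**Figure D1:**
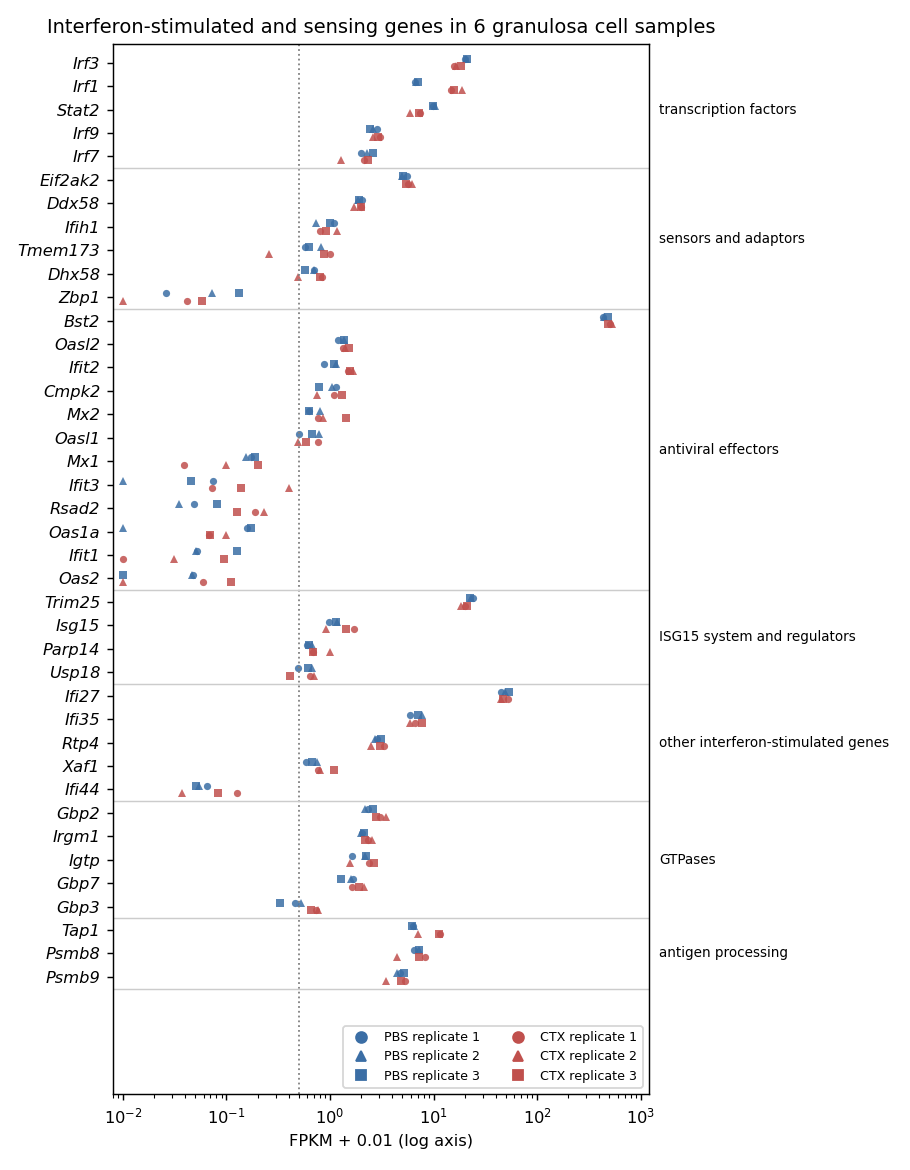
FPKM + 0.01 on a log axis for the 40 members, grouped by role, with a point for each PBS sample (blue) and CTX sample (red). The dotted line marks 0.5 FPKM: 8 members have means below it, and *Bst2*, at 434 to 526 FPKM, lies far to the right of *Ifi27*, the next highest.

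Of the 40 members, 32 passed the filter on low values, and 1 of them, *Irf1*, was called, where 1.76% of all tested genes were. That is 1 of 32 called higher and 0 of 32 called lower, where 1.40% of all tested genes were called higher and 0.360% lower. *Irf1* was also the only member past the threshold of the study's methods, an adjusted p-value below 0.05 with more than a 2-fold change, where 0.802% of the tested genes were higher and 0.159% lower. At an unadjusted p-value below 0.05 there were 7 of 32 members, against 19.6% of all tested genes. The log2 fold change was above 0 in 20 of the 32 (62.5%), against 48.6% of all tested genes, and its median was 0.08, against -0.01. Without CTX replicate 2, described above, 26 of the 32 (81.2%) were above 0, against 48.7% of all tested genes, and the median was 0.14. Within 0.2 of 0 on that scale lay 18 of the 32 members (56.2%) and 53.0% of all tested genes. The CTX values were all higher than the PBS values in 9 members, where 15.0% of all tested genes did so, and all lower in 3 members, where 14.1% did so.

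**Figure D2:**
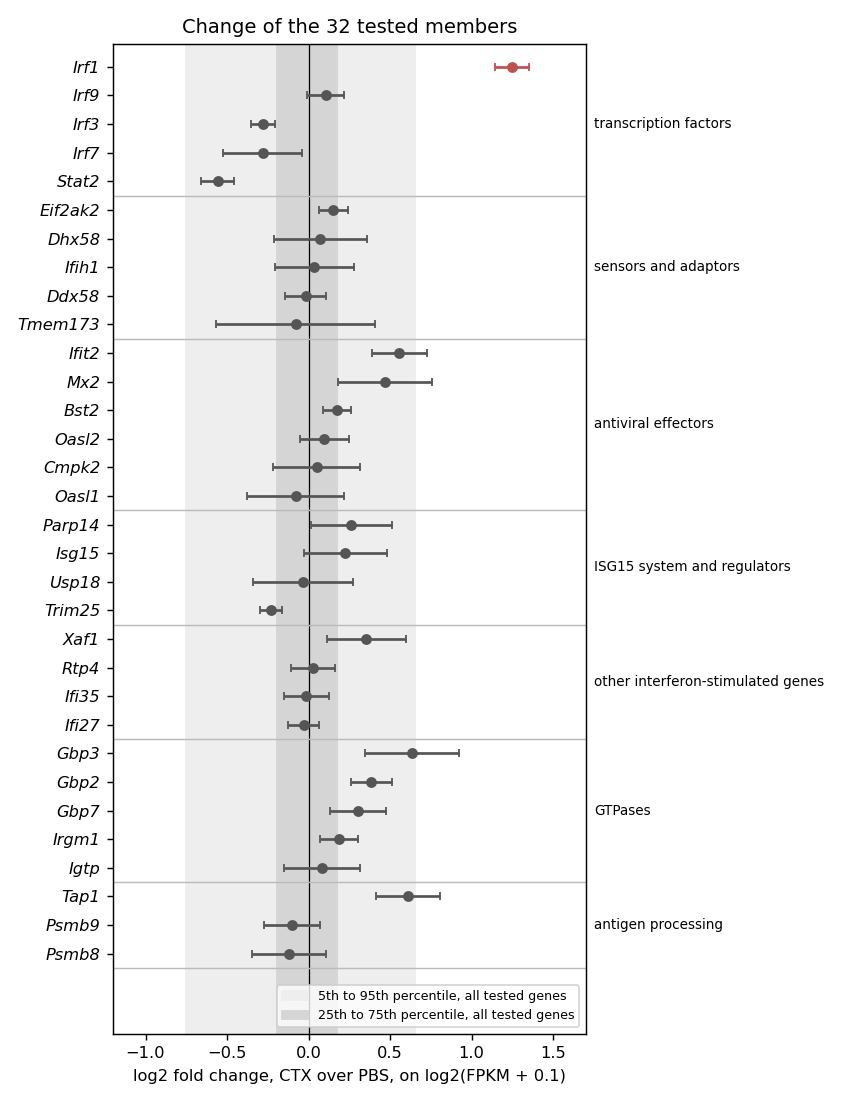
Log2 fold change of CTX over PBS for the 32 tested members on the log2(FPKM + 0.1) scale, with standard errors as bars, over grey bands that hold the 5th to 95th and the 25th to 75th percentiles of all tested genes. *Irf1* (red), at 1.25, is the only member called, and the other 31 lie between -0.56 and 0.63.

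*Irf1* encodes interferon regulatory factor 1, a transcription factor that activates antiviral and antigen-processing genes and that restrains proliferation (chromosome 11, 53770014 to 53778374, GRCm38, plus strand). Its level was 6.65, 6.78 and 7.10 FPKM in the PBS samples and 14.7, 18.9 and 15.8 FPKM in the CTX samples. The groups did not overlap, with a wide gap between the highest PBS and the lowest CTX sample. *Irf1* rose from 6.84 ± 0.231 to 16.5 ± 2.21 FPKM (mean ± SD, n = 3), a ratio of 2.41 on the FPKM scale. Its log2 fold change was 1.25 (SE 0.11, limma adjusted p = 0.0041). Between 457 and 1336 reads lay behind each value. Without CTX replicate 2, where its level was highest, the log2 fold change was 1.14 (adjusted p = 0.0013, limma). The annotated antisense gene *Gm17334* shares 3.40% of the exonic bases of *Irf1*, and the strand setting of the read counting is not given in the sources used here.

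The other transcription factors of the list were not called. STAT2 and IRF9 are parts of the complex that binds the ISRE. *Stat2* was at 9.84, 10.3 and 9.80 FPKM after PBS and at 7.33, 5.86 and 7.15 FPKM after CTX, so that all CTX samples lay below all PBS samples. The CTX mean was 32.1% lower, with a log2 fold change of -0.56 (SE 0.10, limma adjusted p = 0.059), just outside the threshold. Without CTX replicate 2, the lowest sample, its log2 fold change was -0.46 with an adjusted p-value of 0.025 (limma). On the rebuilt reads with limma's voom, the adjusted p-value was 0.039, with a log2 fold change of -0.60. The call was not reached with a replicate block (limma adjusted p = 0.20), with no filter (0.099) or with no trend (0.096). Nor was it reached without any 1 of the PBS samples (0.19 to 0.27) or without CTX replicate 3 (0.14). It was also missed with pseudocounts of 1 and 0.01 and with median-of-ratios and quantile scaling (0.055 to 0.062). Over all alternatives the adjusted p-value ranged from 7.5e-04 to 0.27. The lowest came with arrayWeights, where 2948 of the 14463 tested genes were called lower.

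*Irf3*, the factor that STING and the RNA sensors activate by phosphorylation, was at 20.0025, 20.5 and 21.0 FPKM after PBS and at 15.8, 16.6 and 18.3 FPKM after CTX. Its samples did not overlap either, with a log2 fold change of -0.28 (SE 0.07, limma adjusted p = 0.14). *Irf7*, which amplifies the interferon response, was at 1.98, 2.27 and 2.58 FPKM after PBS and at 2.10, 1.27 and 2.34 FPKM after CTX. Its groups overlapped, and the lowest value was that of CTX replicate 2. Its log2 fold change was -0.28 with that sample and -0.03 without it. *Irf9* was at 2.44 to 2.86 FPKM after PBS and 2.61 to 3.04 FPKM after CTX, with a log2 fold change of 0.11 (SE 0.11).

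The 6 sensors and adaptors showed no called change, and their groups overlapped in all 5 that were tested. *Tmem173* (STING), the adaptor of cytosolic DNA sensing, was at 0.561, 0.806 and 0.617 FPKM after PBS and at 0.983, 0.245 and 0.873 FPKM after CTX, which rests on 10 to 41 reads. Its lowest value, in CTX replicate 2, was 3.14-fold below the mean of the other 5 samples, and its log2 fold change was -0.08 with that sample and 0.44 (SE 0.27) without it. *Ddx58* (RIG-I) was at 1.84 to 2.01 FPKM after PBS and 1.69 to 2.00 FPKM after CTX, and *Ifih1* (MDA5) was at 0.715 to 1.08 and 0.797 to 1.15 FPKM. *Dhx58*, a regulator of these helicases, was at 0.482 to 0.826 FPKM over the 6 samples. The log2 fold change of *Dhx58* was 0.07 with CTX replicate 2 and 0.29 (SE 0.26) without it. *Eif2ak2*, the kinase PKR that halts translation on binding double-stranded RNA, was the highest of the sensors at 4.96 to 5.53 FPKM after PBS and 5.44 to 6.25 FPKM after CTX. *Zbp1*, a sensor of Z-form nucleic acid, had 1, 4 and 7 reads in the PBS samples, against 2, 0 and 3 in the CTX samples. The log2 fold changes of the 5 tested lay between -0.08 and 0.15.

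Among the 12 antiviral effectors, 6 were tested and 0 were called by limma. *Ifit2*, whose protein binds foreign RNA and limits its translation, was at 0.872, 1.14 and 1.08 FPKM after PBS and 1.48, 1.66 and 1.54 FPKM after CTX, from 61 to 116 reads. The groups did not overlap, with a log2 fold change of 0.56 (SE 0.17, limma adjusted p = 0.17). *Mx2* was at 0.615 to 0.785 FPKM after PBS and at 0.748, 0.842 and 1.41 FPKM after CTX. *Bst2* did not overlap between groups, but its log2 fold change was 0.17 (SE 0.08, limma adjusted p = 0.31). *Cmpk2*, *Oasl1* and *Oasl2* overlapped, with log2 fold changes from -0.08 to 0.10. That of *Cmpk2* was 0.05 with CTX replicate 2 and 0.26 (SE 0.24) without it.

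The 6 effectors below the filter were counted in reads. *Rsad2*, which encodes viperin, had 3, 2 and 5 reads in the PBS samples, against 14, 17 and 9 in the CTX samples. The groups did not overlap, and in the fit with no filter its log2 fold change was 0.90 (adjusted p = 0.27, limma). *Ifit3* had 2, 0 and 1 reads after PBS and 2, 12 and 4 after CTX. *Ifit1* had 2, 2 and 5 reads after PBS and 0, 1 and 4 after CTX, and *Mx1* had 11, 10 and 11 after PBS and 2, 6 and 13 after CTX. *Oas1a* and *Oas2*, synthases that activate RNase L, had 0 to 8 reads. A share of 31.7% of the 100-base windows of *Ifit3* transcripts also occurs in *Ifit3b*, and 40.9% of those of *Oas1a* in *Oas1g*, so reads of these genes may be split or lost in counting.

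*Isg15*, the ubiquitin-like protein that is attached to other proteins after interferon, was at 0.965, 1.15 and 1.14 FPKM after PBS and 1.68, 0.895 and 1.40 FPKM after CTX, from 12 to 23 reads. The groups overlapped through CTX replicate 2, the lowest of the 6 samples, while CTX replicates 1 and 3 lay above all PBS samples. The log2 fold change of *Isg15*, whose promoter holds 3 ISREs, was 0.23 (SE 0.25) with CTX replicate 2. Without it, the log2 fold change was 0.47 (SE 0.19, limma adjusted p = 0.24). *Usp18*, which removes ISG15 and dampens receptor signalling, was at 0.400 to 0.687 FPKM over all samples. *Trim25*, a ubiquitin ligase that acts on RIG-I, was at 24.0, 23.0 and 22.7 FPKM after PBS and 19.9, 18.6 and 20.8 FPKM after CTX. Its CTX samples all lay below the PBS samples, with a log2 fold change of -0.23 (SE 0.07, limma adjusted p = 0.16). *Parp14* did not overlap between groups but had a log2 fold change of 0.26 (SE 0.25), which was 0.10 (SE 0.27) without CTX replicate 2, its highest sample.

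Of the other interferon-stimulated genes, *Ifi35* (5.88 to 7.76 FPKM) and *Rtp4* (2.49 to 3.34 FPKM) overlapped between the groups. *Xaf1*, an antagonist of the apoptosis inhibitor XIAP, was at 0.574 to 0.744 FPKM after PBS and 0.753 to 1.08 FPKM after CTX. Its log2 fold change was 0.35 (SE 0.24, limma adjusted p = 0.44). *Ifi44* had 3 to 13 reads.

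The interferon-inducible GTPases, which attack the vacuoles of intracellular pathogens, were higher in all 5 members tested, with log2 fold changes from 0.08 to 0.63 and a median of 0.30, and 0 of the 5 were called by limma. The guanylate-binding protein *Gbp3* was at 0.447, 0.518 and 0.321 FPKM after PBS and 0.727, 0.760 and 0.650 FPKM after CTX, from 17 to 44 reads. All CTX samples lay above the PBS samples, with a log2 fold change of 0.63 (SE 0.29, limma adjusted p = 0.28). *Gbp2* was at 2.19 to 2.58 FPKM after PBS and 2.80 to 3.49 FPKM after CTX, and *Irgm1* at 1.97 to 2.14 and 2.16 to 2.54 FPKM, both without overlap. The adjusted p-values of *Gbp2* and *Irgm1* were 0.19 and 0.40 in limma. *Gbp7* and *Igtp* overlapped. The log2 fold change of *Igtp* was 0.08 with CTX replicate 2 and 0.30 (SE 0.17) without it. With arrayWeights, *Gbp2* and *Igtp* were called higher, where 19.4% of all tested genes were, and in the other alternatives 0 of the 5 were called by limma.

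*Tap1*, *Psmb9* and *Psmb8* lie side by side in the major histocompatibility complex on chromosome 17. *Tap1* (34187553 to 34197225) encodes a subunit of the transporter that moves peptides into the endoplasmic reticulum, and *Psmb9* and *Psmb8* encode subunits of the immunoproteasome that makes those peptides. The RefSeq starts of *Psmb9* and *Tap1*, which are transcribed away from each other, are 225 bases apart. *Tap1* was at 6.31, 6.52 and 6.19 FPKM after PBS and 11.6, 7.02 and 11.3 FPKM after CTX, so that the samples did not overlap but CTX replicate 2 lay close to the PBS samples. Its log2 fold change was 0.61 (SE 0.20, limma adjusted p = 0.18). Without CTX replicate 2, *Tap1* was called, with a log2 fold change of 0.84 (adjusted p = 0.0029, limma). *Psmb9* was at 4.77, 4.40 and 5.21 FPKM after PBS and 5.26, 3.45 and 4.87 FPKM after CTX, and *Psmb8* at 6.44, 7.26 and 7.29 FPKM and 8.21, 4.41 and 7.28 FPKM. Both overlapped, and in both CTX replicate 2 was the lowest of the 6 samples. Their log2 fold changes were -0.10 and -0.12 with it and 0.08 and 0.14 without it. The exons of *Tap1* and *Psmb9* overlap on opposite strands in 3.87% of the bases of *Tap1*.

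**Figure D3:**
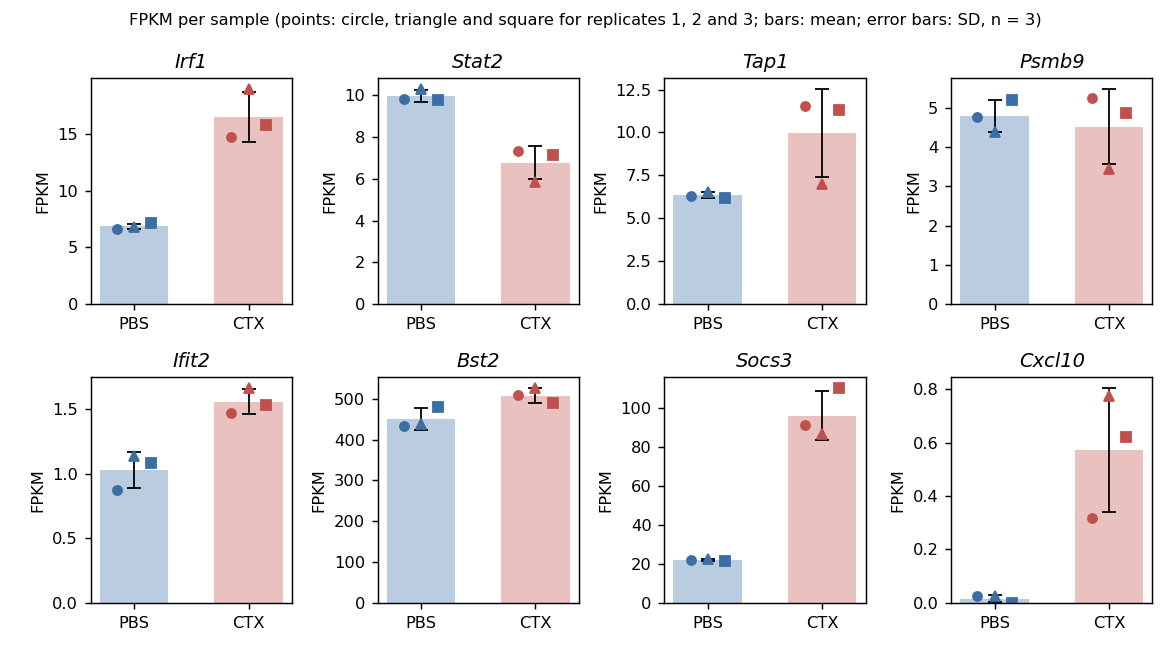
FPKM of 8 genes, with a point for each sample, a bar from 0 to the mean of each group and an error bar of 1 SD (n = 3). *Irf1* and *Socs3* separate widely, *Stat2* is lower in all CTX samples, *Tap1* is higher in CTX replicates 1 and 3 but at 7.02 FPKM in replicate 2, and *Psmb9* beside it overlaps.

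CTX replicate 2 was the most distant sample for the members as well. It was the lowest of the 6 samples in 13 of the 32 tested members and the highest in 11, where it was the lowest in 28.2% and the highest in 29.9% of all tested genes. Its highest values relative to the mean of the other samples, PBS samples included, were those of *Irf1* (1.86-fold) and *Parp14* (1.52-fold). At the low end, *Irf7* was 1.78-fold and *Psmb8* 1.65-fold below that mean, behind *Tmem173*. The ratio of *Irf1* holds its rise after CTX: it was at 18.9 FPKM in CTX replicate 2, against a mean of 15.2 FPKM in CTX replicates 1 and 3. The median deviation of the tested members from the PBS mean was 0.16, -0.06 and 0.12 on the log2 scale in CTX replicates 1, 2 and 3, and -0.04 to 0.05 in the PBS samples. Without CTX replicate 2, 3 members were called, *Irf1* and *Tap1* higher and *Stat2* lower, where 2.49% of the tested genes were called higher and 1.16% lower.

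**Figure D4:**
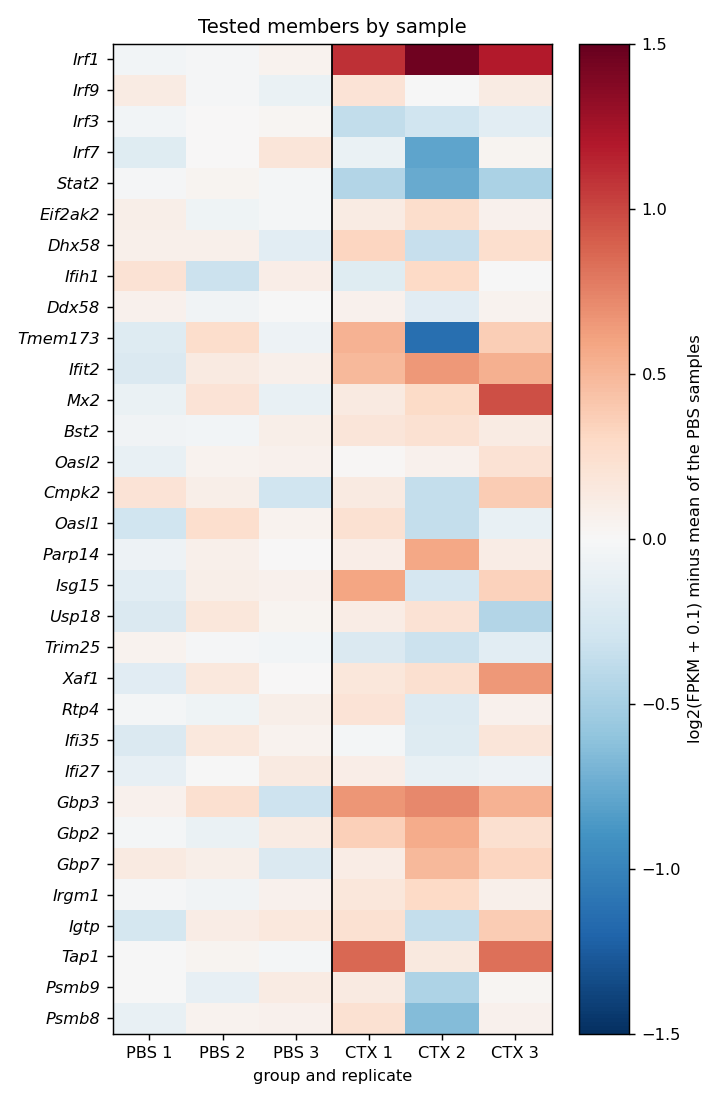
Difference of log2(FPKM + 0.1) from the mean of the PBS samples for the 32 tested members (rows) in the 6 samples (columns), with red above and blue below. The *Irf1* row is red in all CTX samples, and CTX replicate 2 holds the lowest value in 13 rows, among them *Tmem173*, *Irf7* and *Psmb8*.

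The summed levels of leukocyte, theca and stroma, and endothelial markers also stood furthest apart in that sample. The summed level of 15 macrophage and leukocyte markers was 27.0 to 30.6 FPKM after PBS and 44.4, 79.4 and 31.1 FPKM in CTX replicates 1, 2 and 3. Of the 10 tested, 8 were higher, where 48.6% of all tested genes were, and 0 were called by limma. *Lyz2* alone was at 13.1 to 14.3 FPKM after PBS and 22.9, 45.8 and 14.7 FPKM after CTX, while *Ptprc* stayed at or below 0.0983 FPKM and *Cd3e* at or below 0.0410 FPKM in every sample. Markers of theca and stroma (5 genes) summed to 44.2 to 47.2 FPKM after PBS and 54.8, 7.25 and 32.6 FPKM after CTX, a sum carried by *Cyp17a1* and *Col1a1*. Of the 5, 3 were higher and 2 lower, and 0 were called by limma. The 3 higher, *Dcn*, *Lum* and *Pdgfra*, lay above all PBS samples in CTX replicates 1 and 3 only. *Lum* was at 1.96 to 2.47 FPKM after PBS and 4.60, 1.91 and 4.72 FPKM after CTX. Endothelial markers (6 genes) summed to 6.64 to 7.22 FPKM after PBS and 5.88, 2.61 and 5.94 FPKM after CTX, a sum carried by *Cdh5* and *Egfl7*. Of the 6, only these 2 were tested, and both were lower with 0 called by limma. In CTX replicate 2, *Cdh5*, *Egfl7*, *Kdr* and *Emcn* lay below all PBS samples. *Pecam1* (0.326 FPKM) and *Tek* (0.144 FPKM) lay within the PBS range there. Granulosa markers (9 genes) summed to 11450 to 12652 FPKM after PBS and 10272 to 10915 FPKM after CTX, a sum carried by *Inha*. Of the 9, 7 were lower and 2, *Amh* and *Esr2*, were higher, and 0 were called by limma. All CTX samples lay below all PBS samples in 6, where 14.1% of all tested genes did so. The median log2 fold change was -0.30. Oocyte markers (5 genes) summed to 25.8, 52.1 and 47.9 FPKM after PBS and 33.1, 59.4 and 58.6 FPKM after CTX, so that PBS replicate 1 was the lowest. In such bulk samples fewer cells of a type and less RNA per cell cannot be told apart. The part of these cells in the values of *Irf1*, *Tmem173*, *Irf7*, *Psmb8* and *Tap1* was not tested. The log2 fold change of *Irf1* was 1.14 without CTX replicate 2 and 1.32 without CTX replicate 1. The leukocyte sum lay above all PBS samples in each CTX sample, so leaving 1 of them out cannot show the part of these cells.

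Other genes of the pathway were read from a list of 75 names, of which 74 occur in the table, where cGAS is listed under its older symbol *Mb21d1*. Of the 74, 52 were tested, 1 was called higher and 0 lower by limma, and 11 had an unadjusted p-value below 0.05, against the 1.40%, 0.360% and 19.6% of all tested genes given above. The CTX values were all higher than the PBS values in 14 of the 52 (26.9%) and all lower in 2 (3.85%), against 15.0% and 14.1% of all tested genes. Their median log2 fold change was 0.02. The called gene was *Socs3*, an inhibitor of JAK-STAT signalling that cytokines such as interleukin 6 induce. It was at 22.2, 22.5 and 21.6 FPKM after PBS and 91.0, 86.6 and 110 FPKM after CTX, and it rose with a log2 fold change of 2.10 (SE 0.10, limma adjusted p = 8.2e-04). *Socs1*, its relative and a feedback inhibitor of interferon signalling, was at 7.54 to 8.18 FPKM after PBS and 5.77 to 6.51 FPKM after CTX, without overlap in the opposite direction (adjusted p = 0.10, limma).

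Of the interferon genes, 5 were on the list. *Ifnb1*, *Ifna4*, *Ifne* and *Ifnk* had 0 reads in each of the 6 samples, and *Ifng* had 1 read in PBS replicate 3 and 1 in CTX replicate 1. For a gene of 1 kb, 3 reads would have corresponded to between 0.164 and 0.185 FPKM. The receptors of type I interferon and of interferon gamma were present. *Ifnar1* was at 22.3 to 22.9 FPKM after PBS and 18.9 to 23.1 FPKM after CTX, *Ifnar2* at 10.2 to 10.8 and 10.8 to 12.0 FPKM, and *Ifngr1* at 8.12 to 10.04 FPKM over all samples. *Ifngr2* was at 19.9 to 22.2 FPKM after PBS and 24.5, 29.1 and 27.7 FPKM after CTX, without overlap (log2 fold change 0.34, standard error 0.09, adjusted p = 0.13 from limma).

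The receptor kinases *Jak1* (146 to 179 FPKM) and *Tyk2* (5.40 to 6.05 FPKM) overlapped between the groups. So did *Mavs* (10.9 to 12.0 FPKM) and *Tbk1* (11.0 to 13.9 FPKM), the adaptor of the RNA sensors and the kinase of IRF3. *Mb21d1* (cGAS) was at 0.598 to 1.04 FPKM. *Trex1*, the nuclease that clears cytosolic DNA, was listed at 0 in every sample, and all of its exonic bases lie within exons of *Atrip* on the same strand.

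*Cxcl10*, a chemokine gene that interferons induce and that was tested only without the filter on low values, had 1, 1 and 0 reads in the PBS samples, against 13, 31 and 25 in the CTX samples. Against a floor of 3 reads in each PBS sample, its FPKM level was at least 7.46-fold higher after CTX. In the fit without a filter its adjusted p-value was 0.052 (limma).

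Calls were also counted by the presence of an ISRE or a GAS. Among the tested members with a promoter, 11 held an ISRE, of which 9 were higher and 2 lower, with a median log2 fold change of 0.17 and 0 called by limma. The 14 without an ISRE had 7 higher and 7 lower, a median of 0.02 and 1 called, *Irf1*. Over all tested genes, the 341 with an ISRE had a median of -0.01, with 49.0% of them higher and 7 called higher by limma. None of these 341 were called lower. Of the 9531 tested genes whose promoter held no ISRE, 147 were called higher and 29 lower. Over all tested genes, with or without a known promoter, 1.40% were called higher and 0.360% lower. A GAS was held by 8 tested members, of which 6 were higher, 2 lower and 1 called, *Irf1*. The 17 without a GAS had 10 higher, 7 lower and 0 called. Of all tested genes, 798 held a GAS, with 48.9% higher and 11 called higher by limma.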

How the data were processed

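RNA-seq was measured in 3 PBS and 3 CTX samples of mouse GCs, grouped by their titles. Per the labels, the submitters' processing notes name CASAVA 1.8, fastp, HISAT2 2.0.5, featureCounts 1.5.0-p3, DESeq2 1.20.0 and the build mm10, and strandedness is not given in the sources used here. The authors deposited FPKM values, in which a scaling between samples is included. Other deposited columns give a mean signal per group by the authors, the authors' log2 fold change of CTX over PBS and the authors' p-value, raw and adjusted, and were left unused. There were 0 unused per-sample columns.

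FPKM times gene length gave whole multiples of 1 read (within 0.01) for 100% of the values above 0, so reads could be rebuilt, 16005869 to 18455011 per sample. Read numbers cover counting error only. log2(FPKM + 0.1) was compared with limma 3.58.1 (lmFit, eBayes with trend, two-sided) in R 4.3.3, for genes that averaged 0.5 FPKM or more, with Benjamini-Hochberg adjustment over all tested genes. The added 0.1 makes fold changes of weakly expressed genes too small. The fit was tested on simulated data. The p-values measure the spread between pools of 3 mice. Tables were made with Python 3.11.15 and pandas 2.3.3.

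The members and lists were chosen with earlier results of these data known. Values in every sample were given for called members, the 4 largest rises and 4 largest falls, and the 4 highest levels, and further members were shown to describe their roles, after their values were seen. *Cxcl10*, *Lgals3bp*, *Socs1*, *Isg20*, *Tap2* and *Ifi204* were also named after their values were seen. Coordinates are those of the deposited table (GRCm38), and start and end equal GENCODE M21 for 38 of the 40 members. Alternatives were pseudocounts of 1 and 0.01, no filter or a mean of at least 5 FPKM, median-of-ratios and quantile scaling, a replicate block, arrayWeights, no trend, voom on rebuilt reads and each sample left out in turn. A gene of the wider pathway list is not reported here.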

Additional observations from a re-analysis of the deposited data

How the results depend on the processing

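Across the 16 alternatives, *Irf1* and *Socs3* kept their direction and stayed past the threshold in each one, including the fit without CTX replicate 2. With each sample left out in turn, the members called higher numbered 1 to 2 and those called lower 0 to 1, the wider pathway genes called higher 1 to 3, and all tested genes called higher 68 to 360 and lower 2 to 168. The 2 highest of these counts of all tested genes, 360 and 168, came without CTX replicate 2, and 164 were called lower without CTX replicate 1. Without CTX replicate 3 it was 85 higher and 19 lower, and without PBS replicates 1, 2 or 3 it was 75, 71 or 68 higher and 3, 3 or 2 lower. The extra members were *Tap1* and *Stat2* without CTX replicate 2 and *Stat2* without CTX replicate 1 (adjusted p = 0.04999 in limma). For these differences the cause was not tested.

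With arrayWeights, 7 members were called higher and 3 lower, 18 and 6 of the wider pathway genes, and 2805 and 2948 of all tested genes, and the log2 fold change of *Irf7* changed sign to 0.054. Members called lower numbered 1 (*Stat2*) at a mean of at least 5 FPKM and with voom. The wider pathway genes called higher numbered 2 (*Socs3* and *Lgals3bp*) with pseudocount 1, at a mean of at least 5 FPKM, with median-of-ratios scaling and without CTX replicate 1. All genes called lower numbered 34 with no filter and 80 with voom. The log2 fold change of *Ifi27* ranged from -0.093 to 0.038 with each sample left out, and it changed sign to 0.038 without PBS replicate 3 and to 0.014 without CTX replicate 2.

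With the replicate block, 50 of all tested genes were called higher and 3 lower, and *Irf1* stayed called (adjusted p = 0.046 in limma). The numbers only name the pools: deviations of same-numbered samples correlated at 0.056, 0.024 and 0.0058, against a mean of -0.014 otherwise. Members with under 20 reads per sample are limited by depth.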

Other observations

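Several pathway genes outside the 40 members also took their lowest value in CTX replicate 2. *Isg20*, an exonuclease that degrades viral RNA, was at 3.44, 3.34 and 3.02 FPKM after PBS and 3.89, 0.394 and 3.24 FPKM after CTX. *Tap2*, the partner subunit of *Tap1* in the peptide transporter, was at 12.6 to 12.8 FPKM after PBS and 13.5, 5.05 and 9.08 FPKM after CTX. *Ifi204*, a DNA-binding protein of the AIM2 family, was at 0.451 to 0.751 FPKM after PBS and 0.806, 0.0317 and 0.533 FPKM after CTX. None of these was called in limma, with adjusted p-values of 0.56, 0.37 and 0.67.

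*Lgals3bp*, which encodes a secreted glycoprotein that interferon induces, was at 14.6, 13.2 and 14.4 FPKM after PBS and 18.9, 22.9 and 19.96 FPKM after CTX. Its log2 fold change was 0.54 with an adjusted p-value of 0.0505 (limma), the nearest to the threshold among the genes of the wider list that were not called.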
